A study of Equus asinus with 12 samples.

Results

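The Sanfen and Wutou strains of the Dezhou donkey (Equus asinus) were compared in longissimus dorsi muscle, the long muscle of the back, with 3 libraries of each strain. These are 6 of the 12 libraries of a study that took gluteal muscle, from the hip, of both strains as well, and all animals were 24 months old. Both strains belong to 1 Chinese breed and are told apart by coat, black all over in Wutou and black with a pale muzzle, eye rings and belly in Sanfen. The 12 samples came from 6 donkeys by the design text, but the labels name no donkey and give no sex or sampling date, and neither strain is marked as treated. The values are normalised fragment counts, scaled to transcript length and library size (FPKM), per locus, and a locus was compared when it reached an FPKM of 1 in at least 3 of the 6 longissimus libraries. This left 9804 of 27084 loci, of which 7330 carry 1 reference gene with a symbol. Of these 9804 loci, 6665 reached the limit in all 6 libraries, 95 did so only in the 3 Sanfen libraries and 23 only in the 3 Wutou libraries.

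Longissimus is a mixed muscle in which fast fibres, built for short strong contractions and fuelled mainly by glycolysis and glycogen, lie beside slow fibres, which rely on mitochondria and myoglobin. Each fibre type uses its own isoforms of troponin, tropomyosin, myosin light chain, calcium pump and calsequestrin, so the balance of these transcripts follows the balance of fibres in a piece of muscle. The fibres are held by a connective tissue sheath of collagens and small proteoglycans, made by fibroblasts and joined to tendon at the muscle's ends.

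The 6 libraries were muscle by their most abundant transcripts of a single named reference gene. Skeletal actin (ACTA1), fast troponin C (TNNC2), muscle creatine kinase (CKM), aldolase A (ALDOA) and myoglobin (MB) had means of 3310 to 11769 FPKM in Wutou and 4799 to 11287 FPKM in Sanfen. Summed FPKM was 231190 to 258790 in Sanfen and 265500 to 319770 in Wutou, with 47.4% to 56.5% of it in the 10 most abundant loci of a library. The number of reads behind these values is unknown, so no counting interval is given. Across the tested loci, which are not independent replicates, the correlation of log2(FPKM + 1) was 0.892 to 0.942 between libraries of 1 strain and 0.901 to 0.945 between strains. The second Sanfen library stood apart: it was the highest or lowest of the 6 at 46.6% of loci, against 21.7% to 41.0% for the others, and each result below was also computed without it. With it left out, the share of loci lying higher in Wutou moved from 42.4% to 46.7%, and the share lying lower from 57.6% to 53.3%. With median-of-ratios or quantile scaling the sides were nearly even, at 4877 and 4860 of 9804 loci higher, so the shares of 42.4% and 57.6% hold for the values as deposited.

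The strains differed at few single transcripts. Of 9804 loci, 1 rose and 1 fell in Wutou longissimus at an adjusted p under 0.05 (limma on log2(FPKM + 1), Benjamini-Hochberg over all tested loci), which is 0.0102% of loci in each direction and 0.0204% in both. With median-of-ratios or quantile scaling it was 2 and 1. At an unadjusted p under 0.05 the count was 205 higher (2.09%) and 332 lower (3.39%), 537 loci or 5.48% in all. Without the second Sanfen library it was 371 higher and 320 lower, so the side with more loci changed. The strains did not overlap, with every library of 1 strain above every library of the other, at 416 loci higher in Wutou (4.24%) and 745 lower (7.6%). Without that library, with fewer values to separate, the sides were nearly even, at 1220 loci higher (12.4%) and 1323 lower (13.5%). Nothing in the labels ties a library to an animal, so the p-values rest only on how far libraries of 1 group lie apart, which may in part be technical.

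ZNF24, a zinc finger transcription factor (locus MSTRG.16939), was the transcript that rose. It measured 0.558, 0.468 and 0.572 FPKM in the Sanfen libraries and 3.80, 2.18 and 3.10 FPKM in the Wutou libraries. All 3 Wutou libraries lay far above the Sanfen libraries, with no overlap. Its mean was 5.68-fold higher, 3.03 ± 0.815 against 0.533 ± 0.0567 FPKM (SD, n = 3 each), a log2 difference of 1.37 (SE 0.16, limma adjusted p = 0.0302). BTBD9 (MSTRG.17653), which encodes a BTB domain protein, was the transcript that fell. It had 2.04, 3.01 and 2.52 FPKM in the Sanfen libraries and 0.609, 0.795 and 0.583 in the Wutou libraries. The Sanfen libraries were all higher, and the closest pair was still well apart. The log2 difference was -1.08 (SE 0.14, limma adjusted p = 0.0302). BTBD9 is 1 of 8 loci that carry this name, 2 of which were tested, so reads may be split among them. Summed over all loci of this name the strains lay closer, at 6.25 ± 1.42 FPKM in Wutou and 9.66 ± 1.69 in Sanfen (SD).

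ZNF24 reached the FPKM limit in the Wutou libraries only and BTBD9 in the Sanfen libraries only, so both entered the test through the strain in which they were high. Neither call held without the second Sanfen library: the log2 difference of ZNF24 was then 1.34 and that of BTBD9 -0.98, both at adjusted p = 0.108. With only the 6 longissimus libraries the differences were the same size but neither gene was called (adjusted p = 0.0849 for ZNF24 and 0.132 for BTBD9), so both calls need the spread estimated with the gluteal libraries. Over the 12 fits that each left out 1 library, the adjusted p was 0.0149 to 0.160 for ZNF24 and 0.0256 to 0.190 for BTBD9. ZNF24 stayed under 0.05 in 5 of them (without the first or second gluteal library of either strain, or the second Wutou longissimus library) and BTBD9 in 3 (without the first or second Sanfen gluteal library, or the second Wutou gluteal library).

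**Figure D1:**
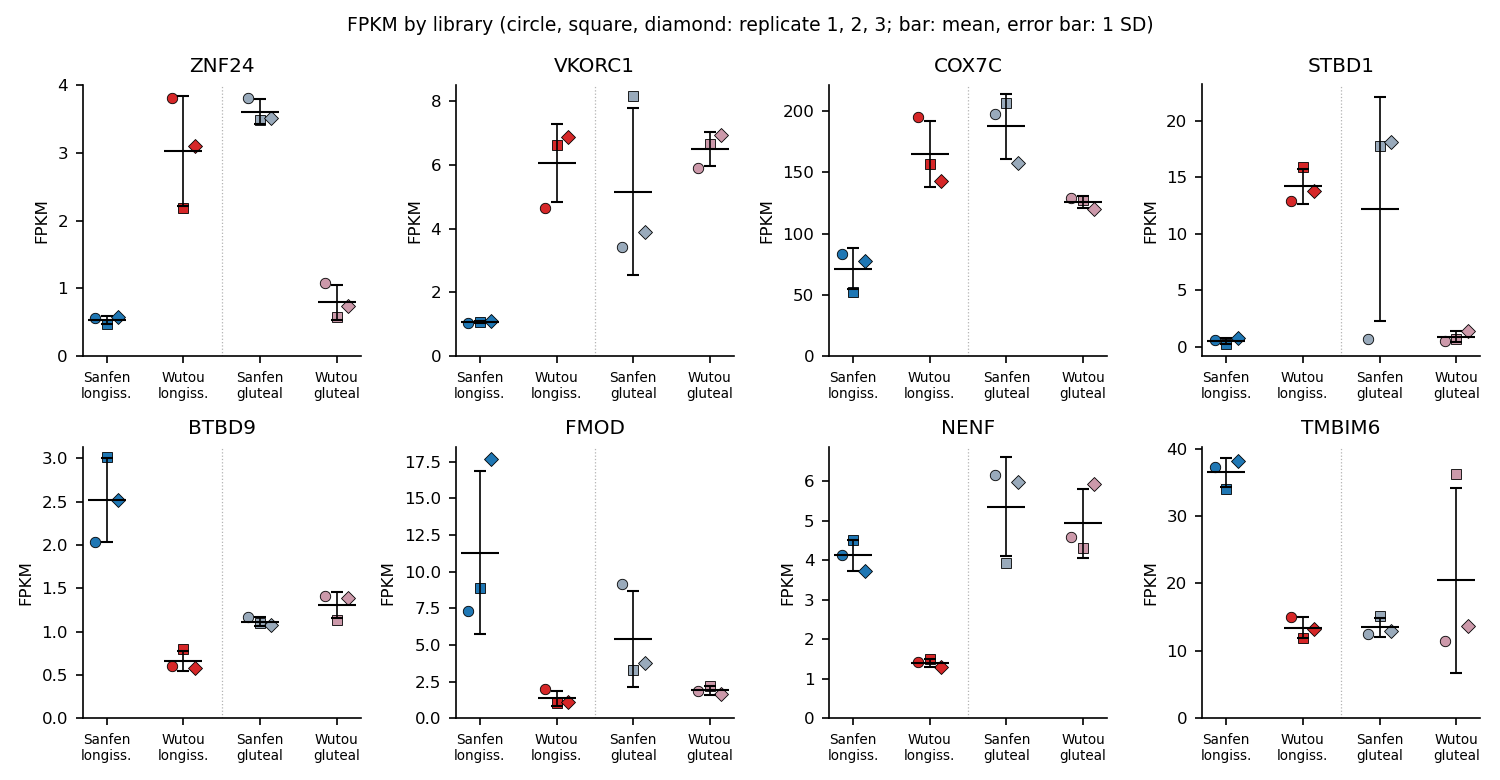
FPKM (vertical axis) of 8 loci in each library, by strain and muscle, with circle, square and diamond for replicates 1, 2 and 3, a bar at the mean and whiskers of 1 SD. ZNF24, VKORC1, COX7C and STBD1 (top) lie higher in Wutou than in Sanfen longissimus and BTBD9, FMOD, NENF and TMBIM6 (bottom) lie lower, while in gluteal muscle the means of ZNF24, COX7C, STBD1, BTBD9 and TMBIM6 lie the other way round.

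Further genes were taken by smallest p among loci with a symbol and strains that did not overlap. They also had to be above 0 in all 6 libraries, with a mean of at least 2 FPKM in the higher group. The separation of the strains in these genes was therefore set by the choice. Next to ZNF24, those higher in Wutou included VKORC1, COX7C and STBD1, and none of them passed the adjusted threshold. VKORC1 (MSTRG.4704), the vitamin K epoxide reductase that recycles vitamin K for the carboxylation of clotting and matrix proteins, read 1.05, 1.06 and 1.11 FPKM for Sanfen and 4.65, 6.61 and 6.89 for Wutou. The 3 Sanfen libraries were nearly equal and every Wutou library lay well above them. Its log2 difference was 1.75 (SE 0.24, limma adjusted p = 0.0506), just short of the threshold, and 1.75 without the second Sanfen library. COX7C (MSTRG.10863), a small subunit of cytochrome c oxidase, stood at 83.5, 52.1 and 78.0 FPKM in Sanfen and at 195, 157 and 143 in Wutou. The Wutou libraries were all higher, and the log2 difference of 1.22 (SE 0.23, adjusted p = 0.255) was 1.01 without the second Sanfen library.

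STBD1 (MSTRG.1496), which binds glycogen and takes part in its delivery to lysosomes, had 0.579, 0.263 and 0.770 FPKM in the Sanfen libraries and 12.9, 15.9 and 13.8 in the Wutou libraries. The libraries of the strains fell at separate levels, and the mean was 26.4-fold higher in Wutou, the only strain in which it reached the FPKM limit. The adjusted p was 0.599, in a fit whose spread also takes in gluteal muscle, where STBD1 was at 0.715, 17.8 and 18.1 FPKM in Sanfen and at 0.518, 0.670 and 1.41 in Wutou. Both levels thus occurred within 1 group, the Sanfen gluteal libraries. With the 6 longissimus libraries alone, 5 of 9804 loci were called higher in Wutou, STBD1 and VKORC1 among them, and 2 lower. The other loci called higher were C8H6orf47 and MSTRG.16171, listed at 0 in every Sanfen library, and SRL, at 0, 0.225 and 0 FPKM in Sanfen. Those called lower, LOC106840242 and TOB1, were listed at 0 in every Wutou library. An exact 0 can be a failed estimate, and identical zeros leave no spread within a strain.

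The other named genes on the higher side were MRPL34, a mitochondrial ribosomal protein, NUDT3, a phosphatase of inositol pyrophosphates, THOP1, an oligopeptidase, COMMD1, a regulator of copper handling, KIAA0513 and REX1BD. Their log2 differences were 0.66 to 2.58 and their adjusted p-values 0.599 to 0.746. MRPL34 had the widest spread within Sanfen, at 0.235, 0.624 and 6.06 FPKM against 10.1, 15.7 and 15.2 in Wutou. In COMMD1 the spread within Sanfen was narrow, at 2.90, 2.80 and 2.62 FPKM against 4.72, 6.44 and 4.32 in Wutou. The strains did not overlap in either gene, as the choice required.

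On the lower side the genes taken in the same way after BTBD9 included FMOD, NENF, TMBIM6, PPP1R3C and CAT, and none passed. Here too the choice required separate strains. FMOD (MSTRG.1720), fibromodulin, a proteoglycan that binds collagen fibrils, read 7.34, 8.86 and 17.7 FPKM for Sanfen and 1.97, 1.03 and 1.12 for Wutou. Every Wutou library was below every Sanfen library, with a log2 difference of -2.30 (SE 0.35, limma adjusted p = 0.0864) that was -2.42 without the second Sanfen library. NENF (MSTRG.19367), the secreted factor neudesin, stood at 4.13, 4.52 and 3.73 FPKM in Sanfen and at 1.41, 1.5 and 1.30 in Wutou. Both groups were tight, and the log2 difference was -1.09 (SE 0.17, adjusted p = 0.0944).

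TMBIM6 (MSTRG.13414), an endoplasmic reticulum protein that inhibits BAX-mediated cell death, had 37.2, 34.0 and 38.2 FPKM in the Sanfen libraries and 15, 11.9 and 13.3 in the Wutou libraries. The strains again lay at separate levels, yet both levels were found within Wutou gluteal muscle, at 11.4, 36.2 and 13.8 FPKM. Its adjusted p was 0.635 with all libraries, and 0.0379 without the second Wutou gluteal library. PPP1R3C (MSTRG.3551), which brings protein phosphatase 1 to glycogen, read 4.56, 4.38 and 31.3 FPKM for Sanfen and 1.44, 1.06 and 0.806 for Wutou. The third Sanfen library was far above the rest, but the strains did not overlap (log2 difference -2.25, SE 0.53, adjusted p = 0.635).

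CAT (MSTRG.8367), catalase, stood at 15, 28.6 and 18.1 FPKM in Sanfen and at 12, 6.76 and 9.14 in Wutou. The groups did not overlap, though the first libraries of each came close, and the log2 difference was -1.05 (SE 0.25, adjusted p = 0.635). LAPTM5, a lysosomal membrane protein of blood cells, NCOA6, a nuclear receptor coactivator, COQ10B, a mitochondrial coenzyme Q binding protein, and NDRG1, a stress and differentiation gene, had log2 differences of -0.86 to -0.59. Their adjusted p-values were all 0.746.

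**Figure D2:**
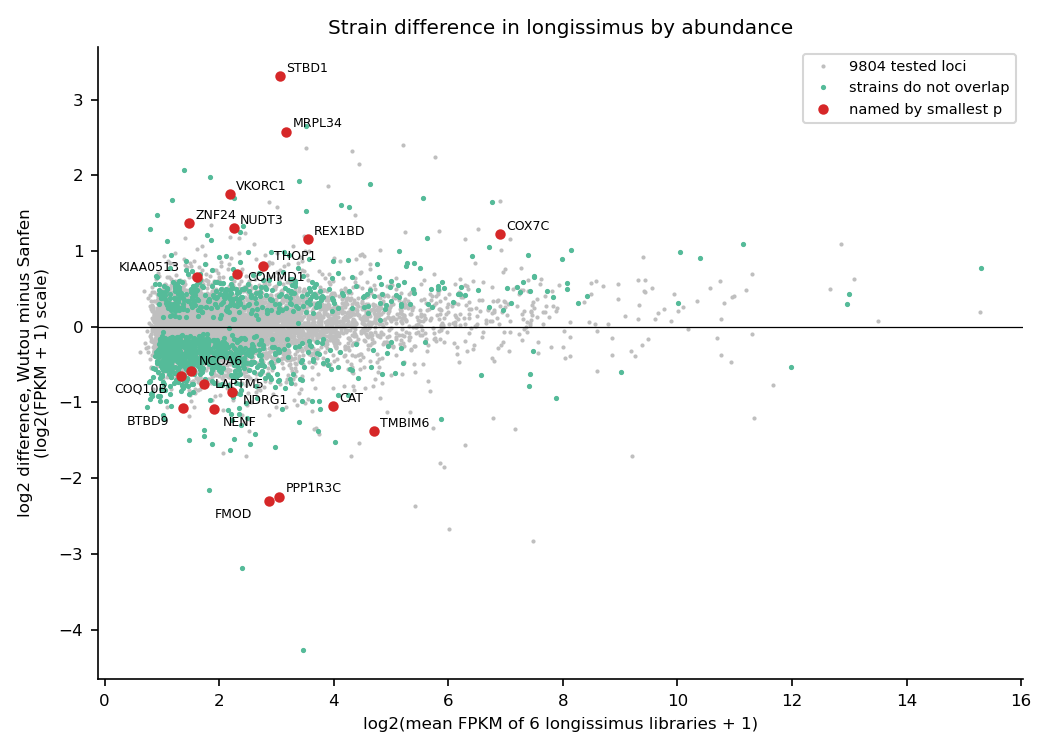
Log2 difference between the strains in longissimus (vertical axis, Wutou minus Sanfen, on the log2(FPKM + 1) scale) against log2(mean FPKM of the 6 libraries + 1) for the 9804 tested loci, with loci whose strains do not overlap in green and the named loci of smallest p in red. The named loci range from -2.30 for FMOD to 3.31 for STBD1.

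Some of the widest differences came from loci listed at exactly 0 in single libraries, as 184 of the 9804 loci were. TOB1, an antiproliferative gene, was at 24.1, 9.53 and 26.5 FPKM in Sanfen and listed at 0 in all 3 Wutou libraries. The strains were separate in longissimus, but in gluteal muscle TOB1 was listed at 0 in 2 libraries of each strain and at 29.2 and 25.5 FPKM in the remaining ones. An exact 0 in a table of this kind can be a failed estimate, so no fold change is given for these loci.

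Among other loci of this kind, TOMM5, part of the mitochondrial import pore, was at 0, 0.887 and 0.179 FPKM in Sanfen against 6.97, 5.87 and 1.48 in Wutou, and it reached the FPKM limit only in Wutou, as TOB1 did only in Sanfen. SMCR8, an autophagy regulator, was at 5.47, 4.69 and 3.90 FPKM in Sanfen against 0, 3.40 and 3.11 in Wutou. B3GALT6 and NXT1 were listed at 0 in 2 and 1 Sanfen libraries and in no Wutou longissimus library. In all, 46 loci were listed at 0 in at least 1 longissimus library and at 5 FPKM or more in another, and at 7 of these the strains did not overlap (2 higher and 5 lower in Wutou, beside 4.24% and 7.6% of all loci). EBF1, an assembled locus named after its values were seen, was the 1 locus called without the second Sanfen library (0.0102% of loci), and that call rests on listed zeros: it was at 0, 2.22 and 0 FPKM in Sanfen and at 2.24, 1.47 and 2.06 in Wutou.

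Fast fibre transcripts lay higher in Wutou as a group, though none passed the test. All 12 tested fast fibre genes were higher, against 42.4% of all loci, with a median log2 difference of 0.62 beside -0.05 for all loci. At the FPKM limit of 5, 1424 of 2501 loci were higher, with a median of 0.05. All 11 fast fibre genes left there were higher, with a median of 0.62. The size of the fast fibre difference moved with single libraries and with scaling. Without the second Sanfen library all 12 were still higher, but the median was 0.23, and without the third Sanfen library it was 0.92. Under quantile scaling 11 of the 12 were higher, with a median of 0.38. In muscle pieces such as these, fewer fibres of a type and less RNA per fibre cannot be told apart.

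TNNI2, fast troponin I, had 1682, 722 and 2212 FPKM in the Sanfen libraries and 2944, 3004 and 2950 in the Wutou libraries. The Wutou libraries were nearly equal and all higher, while Sanfen spread widely, with its second library lowest. The log2 difference was 1.09 (SE 0.38, limma adjusted p = 0.860) and 0.62 without that library. ACTN3, the alpha-actinin of fast fibre Z-discs, read 130, 179 and 270 FPKM for Sanfen and 363, 389 and 366 for Wutou. Here the second Sanfen library was not the extreme one, and the log2 difference of 1.01 was 0.99 without it. ATP2A1, the fast fibre calcium pump, was the third of 12 members whose strains did not overlap, at a log2 difference of 0.31. Over all loci the strains did not overlap in this direction at 4.24%.

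For other members the gap shrank without the second Sanfen library. MYLPF, fast myosin regulatory light chain, stood at 2411, 923 and 2825 FPKM in Sanfen and at 3364, 3053 and 2590 in Wutou. TPM1, a tropomyosin, had 586, 162 and 848 FPKM in the Sanfen libraries and 896, 777 and 784 in the Wutou libraries. The remaining Sanfen libraries of both genes lay within or near the Wutou range, and the log2 differences of 0.69 and 0.92 were 0.19 and 0.21 without the second Sanfen library. CASQ1, fast calsequestrin, read 498, 400 and 586 FPKM for Sanfen and 546, 953 and 818 for Wutou, with an overlap between the strains. The fast myosin heavy chains MYH1, MYH2 and MYH4 and fast troponin T were not found under those symbols as loci of their own. A merged locus of MYH13 and unnamed myosin genes, looked up after the list values were seen, stood at 1022, 499 and 933 FPKM in Sanfen and at 888, 890 and 992 in Wutou. A second merged MYH13 locus, of lower level, lay the other way, at 164, 93.2 and 11 FPKM in Sanfen against 18.2, 3.39 and 52.0 in Wutou (log2 difference -1.79, SE 1.26). A locus merging TNNT3, fast troponin T, with LSP1 was at 500, 155 and 659 FPKM in Sanfen against 507, 517 and 635 in Wutou. Apart from the second Sanfen library, the strains overlapped at the first MYH13 locus and at this one.

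Slow fibre transcripts did not lie to 1 side once the second Sanfen library was left out. Of 14 tested members, 4 were higher and 10 lower, with a median of -0.27, and without that library 8 were higher and the median was 0.03. Without the first Sanfen library it was -0.58, and without the first Wutou library -0.15. ATP2A2, the slow fibre calcium pump, had 246, 510 and 193 FPKM in the Sanfen libraries and 136, 175 and 143 in the Wutou libraries. The strains did not overlap, and the log2 difference of -0.94 (SE 0.33, limma adjusted p = 0.860) was -0.53 without the second Sanfen library. TNNI1, slow troponin I, read 21.2, 115 and 27.3 FPKM for Sanfen and 19.2, 46.7 and 20.9 for Wutou. Only the second library of each strain was high, and its log2 difference of -0.60 was 0.14 without the Sanfen one.

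MB, myoglobin, stood at 4941, 5446 and 4011 FPKM in Sanfen and at 3379, 2934 and 3616 in Wutou. The strains did not overlap, at a log2 difference of -0.53 (SE 0.37), or -0.43 without the second Sanfen library. MYBPC1, slow myosin binding protein C, and TPM3, slow tropomyosin, were the other members with separate strains, at -0.63 and -0.64. At 4 of 14 members, then, the strains were separate in the lower direction, beside 7.6% of all loci. Slow troponin C (TNNC1) and the slow light chain MYL3 lay slightly higher in Wutou, at 0.18 and 0.11.

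**Figure D3:**
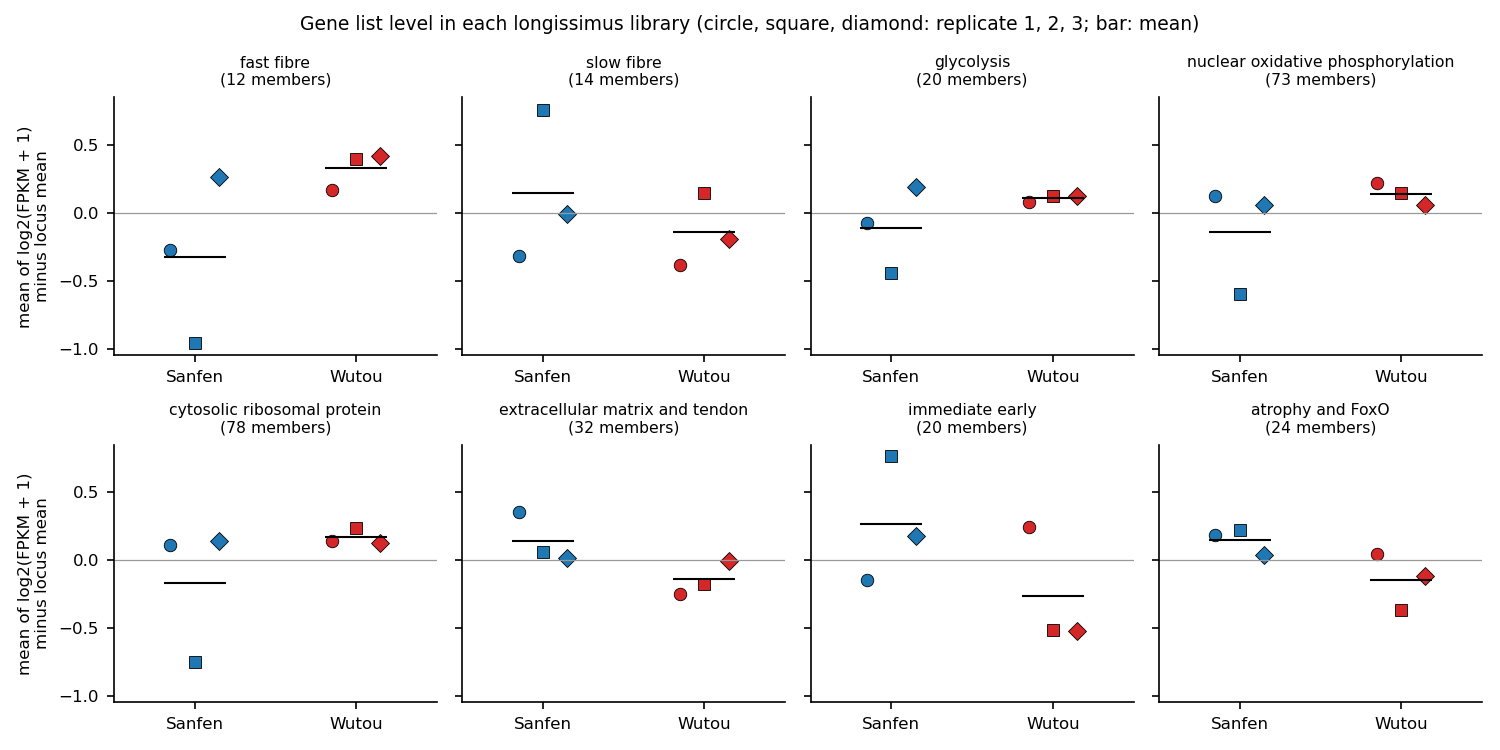
Level of 8 gene lists in each longissimus library, as the average over members of the deviation of log2(FPKM + 1) from each locus mean (vertical axis), with circle, square and diamond for replicates 1, 2 and 3 and a bar at the strain mean. The second Sanfen library lies lowest for fast fibre (-0.96), ribosomal protein (-0.75) and oxidative phosphorylation (-0.60) genes and highest for slow fibre (0.75) and immediate early (0.76) genes.

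**Figure D4:**
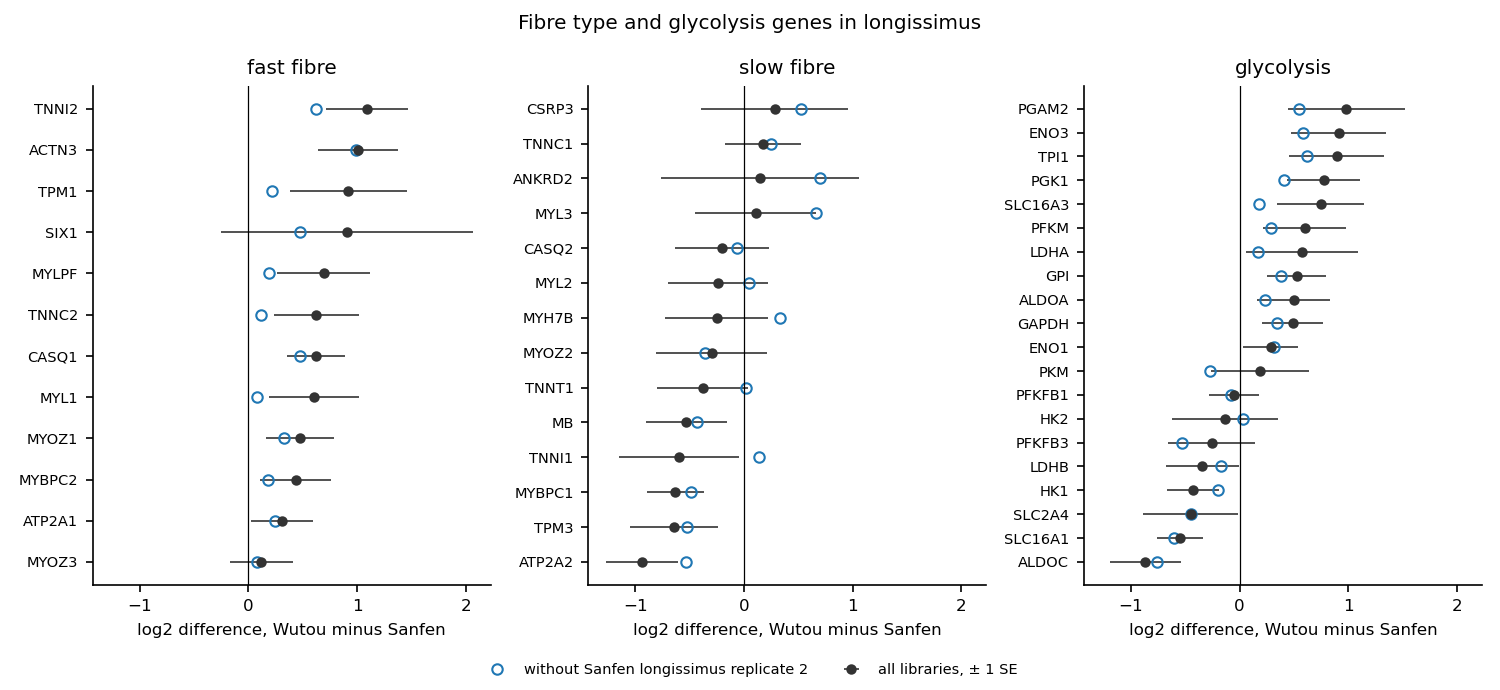
Log2 difference between the strains (horizontal axis, Wutou minus Sanfen) for each tested fast fibre, slow fibre and glycolysis gene, with all libraries (filled, with 1 SE) and without the second Sanfen longissimus library (open). All 12 fast fibre genes lie above 0 either way, while TNNI1 and 3 other slow fibre genes cross to the higher side when the library is left out.

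Glycolysis genes were divided, with the muscle forms PGAM2 and ENO3 higher in Wutou and LDHB and SLC16A1 lower, and no member passed the test. Of 20 tested glycolysis genes 12 were higher and 8 lower, with a median of 0.39 that was 0.17 without the second and 0.66 without the third Sanfen library. PGAM2, which encodes phosphoglycerate mutase of muscle, had 730, 372 and 1173 FPKM in the Sanfen libraries and 1306, 1377 and 1375 in the Wutou libraries. The muscle enolase ENO3 was at 854, 573 and 1513 FPKM in Sanfen against 1659, 1884 and 1578 in Wutou. In both genes Wutou was above every Sanfen library, and the third Sanfen library came close. Their log2 differences of 0.98 and 0.91 were 0.55 and 0.58 without the second Sanfen library. TPI1 and GPI, triosephosphate and glucose-6-phosphate isomerase, were also separate between the strains. In all, 4 of 20 members were separate in the higher and 3 in the lower direction, beside 4.24% and 7.6% of all loci.

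In the other direction, SLC16A1, a monocarboxylate transporter of oxidative cells, read 5.48, 4.90 and 5.81 FPKM for Sanfen and 3.36, 3.58 and 3.16 for Wutou. Its groups were tight and separate, at a log2 difference of -0.55 (SE 0.21, limma adjusted p = 0.860). LDHB, the lactate dehydrogenase chain of oxidative tissue, lay at 28.2, 41.7 and 29.5 FPKM in Sanfen against 22.2, 28.1 and 26.7 in Wutou. These strains were just separate. LDHA, the chain of glycolytic muscle, overlapped between the strains at 302, 158 and 455 FPKM against 383, 454 and 413.

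Glycogen genes were mixed, with 11 of 18 tested members higher and a median of 0.20 that was 0.07 without the second Sanfen library. Beside STBD1 and PPP1R3C, described above, GBE1, the branching enzyme, stood at 10.5, 12.1 and 8.47 FPKM in Sanfen and at 5.01, 6.22 and 5.11 in Wutou. Wutou was lower throughout, at a log2 difference of -0.81 (SE 0.26, limma adjusted p = 0.860) or -0.70 without the second Sanfen library. The glycogen phosphorylase of muscle, PYGM, overlapped between the strains, and PHKA1, a phosphorylase kinase subunit, was higher in each Wutou library at a log2 difference of 0.49. Of 18 members 2 were separate in the higher and 2 in the lower direction, beside 4.24% and 7.6% of all loci.

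Nuclear genes of oxidative phosphorylation and of the cytosolic ribosome lay higher in Wutou in number, by margins that shrank without the second Sanfen library. Of 73 tested oxidative phosphorylation genes, 63 were higher and 10 lower, with a median of 0.30, and without that library 46 were higher and the median was 0.08. Without the first Sanfen library it was 0.45. Over all loci 42.4% were higher, or 46.7% without the second Sanfen library. At the FPKM limit of 5, 62 of 70 members were higher, beside 1424 of 2501 loci. Under quantile scaling 57 of 73 were higher, with a median of 0.22, beside 4860 of 9804 loci. At 14 of the 73 members, or 16 without the second Sanfen library, every Wutou library lay above every Sanfen library, beside 4.24% and 12.4% of all loci. Besides COX7C, COX8A, a further cytochrome c oxidase subunit, had 1.80, 0.795 and 0.537 FPKM in the Sanfen libraries and 4.19, 1.84 and 5.48 in the Wutou libraries. Its strains were just separate, at a log2 difference of 1.21 (SE 0.38, limma adjusted p = 0.860).

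NDUFA7, a complex I subunit, read 33.1, 20.6 and 28.2 FPKM for Sanfen and 41.3, 43.0 and 35.5 for Wutou. It was separate between the strains too, with a log2 difference of 0.55, or 0.37 without the second Sanfen library. The complex III subunit UQCRFS1 had the lowest value of the list at -1.21 (SE 1.34), with the second Wutou library at 5.23 FPKM and the other 5 at 97.7 to 148 FPKM.

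Of 78 ribosomal protein genes 74 were higher, with a median of 0.32, and without the second Sanfen library 42 were higher and the median was 0.05. Over all loci these shares were 42.4% and 46.7%. At the FPKM limit of 5, 73 of 77 members were higher, beside 1424 of 2501 loci. Under quantile scaling 68 of 78 were higher, with a median of 0.22, beside 4860 of 9804 loci. RPS20 stood at 80.4, 41.4 and 86.2 FPKM in Sanfen and at 155, 124 and 139 in Wutou. Wutou was higher in every library, at a log2 difference of 1.06 (SE 0.39, limma adjusted p = 0.860) and 0.73 without the second Sanfen library. RPLP1 had 208, 234 and 201 FPKM in the Sanfen libraries and 282, 415 and 275 in the Wutou libraries. Its strains were separate and its difference was not tied to that library, at 0.57 and 0.64 without it. In all, 17 of 78 members were separate in the higher direction with or without that library, beside 4.24% and 12.4% of all loci. In the lower direction it was 0 members, and 10 without that library, beside 7.6% and 13.5%. Citrate cycle genes were nearly even, with 13 of 26 higher and a median of 0.00 (-0.09 with quantile scaling), as were genes of fatty acid uptake and oxidation, with 11 of 27 higher and a median of -0.03 (0.02 with median-of-ratios scaling and 0.03 without the second Sanfen library).

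Connective tissue genes lay lower in Wutou, with or without the second Sanfen library, and no member passed the test. Of 32 tested matrix and tendon genes 23 were lower, beside 57.6% of all loci. Their median was -0.23, and -0.39 without that library. The strains were separate in the lower direction at 7, beside 7.6% of all loci. Without the first Sanfen library, in turn, the median was -0.03 and 17 of 32 were lower, and without the third Wutou library it was -0.37. COL12A1, a collagen of tendon and fascia that coats collagen fibrils, read 7.29, 5.94 and 9.87 FPKM for Sanfen and 2.44, 1.23 and 2.21 for Wutou. Wutou was lower in every library, at a log2 difference of -1.56 (SE 0.43, limma adjusted p = 0.746). Together with FMOD it had the smallest p of the list.

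The glycoprotein tenascin C (TNC), the proteoglycan biglycan (BGN), the protease inhibitor TIMP2 and fibronectin (FN1) were separate as well, at log2 differences of -0.73, -0.61, -0.67 and -0.62. TNC passed the filter only through the Sanfen libraries, where it was high. The main interstitial collagens were not separate: COL1A1 stood at 10.3, 9.64 and 18.7 FPKM in Sanfen and at 6.53, 8.92 and 11 in Wutou. COL3A1 had 46.8, 19.5 and 13.8 FPKM in the Sanfen libraries and 19.2, 37.9 and 41.3 in the Wutou libraries. Both genes overlapped between the strains. Of 12 fibroblast markers 9 were lower, with a median of -0.22, but without the first Wutou library 6 were lower and the median was -0.01. Fibroblast medians without the first Sanfen and second Wutou library were -0.13 and -0.14, and the summed level of the list was 195 to 249 FPKM in Sanfen and 175 to 235 FPKM in Wutou. Whether the number of fibroblasts has a part in the matrix genes was not tested.

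Genes of satellite cells, the stem cells of muscle, and of regeneration were divided, with 7 of 13 tested members higher and a median of 0.09. Of 24 listed genes, PAX7, MYOD1, CALCR and MEGF10 were among those under the filter. The tested members include DES and NOTCH3, which also stand in the pericyte and smooth muscle list. The sign rested on single libraries: leaving out 1 library at a time gave -0.25 (first Sanfen library) to 0.25 (second Sanfen library), and -0.09 without the third Wutou library. MYF5, a myogenic factor of satellite cells, read 1.02, 1.85 and 1.04 FPKM for Sanfen and 0.202, 0.0629 and 0.264 for Wutou. All Wutou libraries were lower, at a log2 difference of -0.95 (SE 0.23, limma adjusted p = 0.635), or -0.79 without the second Sanfen library. MYF5 passed the filter only through the Sanfen libraries, so its difference is in part set by the filter. SPRY1, a signalling inhibitor active in resting satellite cells, stood at 3.97, 4.43 and 4.08 FPKM in Sanfen and at 1.46, 2.88 and 1.99 in Wutou. It too was separate between the strains, at -0.75. CDH15, a cadherin of muscle precursors, overlapped, at a log2 difference of 0.61. Of 13 members 1 was separate in the higher and 2 in the lower direction, beside 4.24% and 7.6% of all loci.

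Immediate early genes, which respond within minutes to handling, contraction or stress, lay lower in Wutou in 19 of 20 cases, with a median of -0.46. Over all loci 57.6% were lower, with a median of -0.05. Without the second Sanfen library 16 were lower and the median was -0.30, and without the first Wutou library it was -0.76. EGR1 had 1.10, 10.1 and 1.25 FPKM in the Sanfen libraries and 0.797, 0.416 and 0.202 in the Wutou libraries. The strains were separate, but the log2 difference of -1.37 was -0.58 without that library, and only the Sanfen libraries reached the FPKM limit. CYR61, a matricellular gene, read 10.9, 28.1 and 13.4 FPKM for Sanfen and 8.74, 3.53 and 10.7 for Wutou. Its highest Wutou library lay just under its lowest Sanfen library. EGR1 and CYR61 were the 2 of 20 members with separate strains, beside 7.6% of all loci in the lower direction. FOS overlapped, at 11.6, 43.8 and 29.9 FPKM against 30.8, 10.2 and 8.13. The first Wutou library was high for this list, with a mean deviation of 0.25 against -0.51 and -0.52 in the others.

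Genes of muscle atrophy lay lower in Wutou in 21 of 24 cases, with a median of -0.20, or 18 and -0.15 without the second Sanfen library. The share of all loci lying lower was 57.6%, or 53.3% without that library. FBXO32, the ubiquitin ligase atrogin-1, stood at 48.4, 15.7 and 46.7 FPKM in Sanfen and at 21.9, 11.7 and 17.7 in Wutou. Here the second Sanfen library fell among the Wutou libraries, and the log2 difference of -0.95 (SE 0.42, limma adjusted p = 0.860) was -1.46 without it. This is 1 of 3 loci named FBXO32, 2 of which were tested. The other tested one was at 68.5, 30.5 and 80.9 FPKM in Sanfen against 43.4, a listed 0 and 28.1 in Wutou. Summed over all loci of this name the strains were at 96.8 ± 44.3 FPKM in Sanfen and 41.0 ± 27.1 in Wutou (SD). ZFAND5, a ubiquitin binding protein of wasting muscle, had 22.4, 8.50 and 11.1 FPKM in the Sanfen libraries and 5.92, 2.75 and 6.52 in the Wutou libraries. The strains did not overlap, at a log2 difference of -1.26 (SE 0.37, adjusted p = 0.860). ZFAND5 was the 1 of 24 members with separate strains, beside 7.6% of all loci in the lower direction. The other ubiquitin ligase of atrophy, TRIM63, stood in a merged locus at 16.2, 10.1 and 13.6 FPKM in Sanfen against 20.8, 12.6 and 14.7 in Wutou, which overlapped.

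Growth control genes showed no side, with 12 of 25 higher and a median of -0.10, which ran from -0.16 without the third Sanfen library to 0.02 without the first Wutou library. GHR, the growth hormone receptor, read 3.33, 3.07 and 3.89 FPKM for Sanfen and 2.68, 2.04 and 1.81 for Wutou. It was separate, at -0.49 (SE 0.20, limma adjusted p = 0.860), as were SMAD7, an inhibitor of TGF-beta signalling, at -0.77 and the ligand TGFB2 at -0.71. In all, 4 of 25 members were separate in the lower and 0 in the higher direction, beside 7.6% and 4.24% of all loci. IGF1 stood at 1.94, 1.32 and 1.18 FPKM in Sanfen and at 1.18, 1.95 and 1.45 in Wutou, with full overlap.

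Antioxidant genes were lower in 14 of 24 cases, near the 57.6% of all loci. Their median was -0.12 and ran from -0.19 without the first to -0.02 without the third Sanfen library. Besides catalase, the glutathione peroxidase GPX3 had 12.9, 17.6 and 15.1 FPKM in the Sanfen libraries and 9.01, 5.64 and 7.20 in the Wutou libraries. HMOX1, haem oxygenase, read 14.9, 13.5 and 10.8 FPKM for Sanfen and 9.77, 3.04 and 7.13 for Wutou. Both were separate, at a log2 difference of -0.98 each, and 6 of 24 members in all were separate in the lower direction, beside 7.6% of all loci. KEAP1, the sensor that restrains the antioxidant response, lay the other way, at 33.8, 41.2 and 29.2 FPKM in Sanfen against 41.5, 49.0 and 52.3 in Wutou.

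Markers of other cells of the tissue gave small medians. The medians were 0.08 for 11 macrophage and leukocyte genes, -0.12 for 15 endothelial genes, 0.03 for 16 pericyte and smooth muscle genes, -0.22 for 19 fat cell genes and -0.24 for 4 nerve genes. Without the second Sanfen library the fat cell median was 0.08 and the endothelial median 0.02. The macrophage median was -0.07 without the third Sanfen library, with 3 of 11 higher, and the pericyte median was -0.09 without it. None of the 11 blood genes and none of the 13 cartilage and bone genes in the table reached the filter, and the haemoglobin gene HBA1 was at most 3.59 FPKM, in the third Sanfen library. RGS5, a pericyte gene, stood at 9, 11.1 and 2.04 FPKM in Sanfen and at 2.15, 2.28 and 1.79 in Wutou. It was called only without the third Sanfen library.

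**Figure D5:**
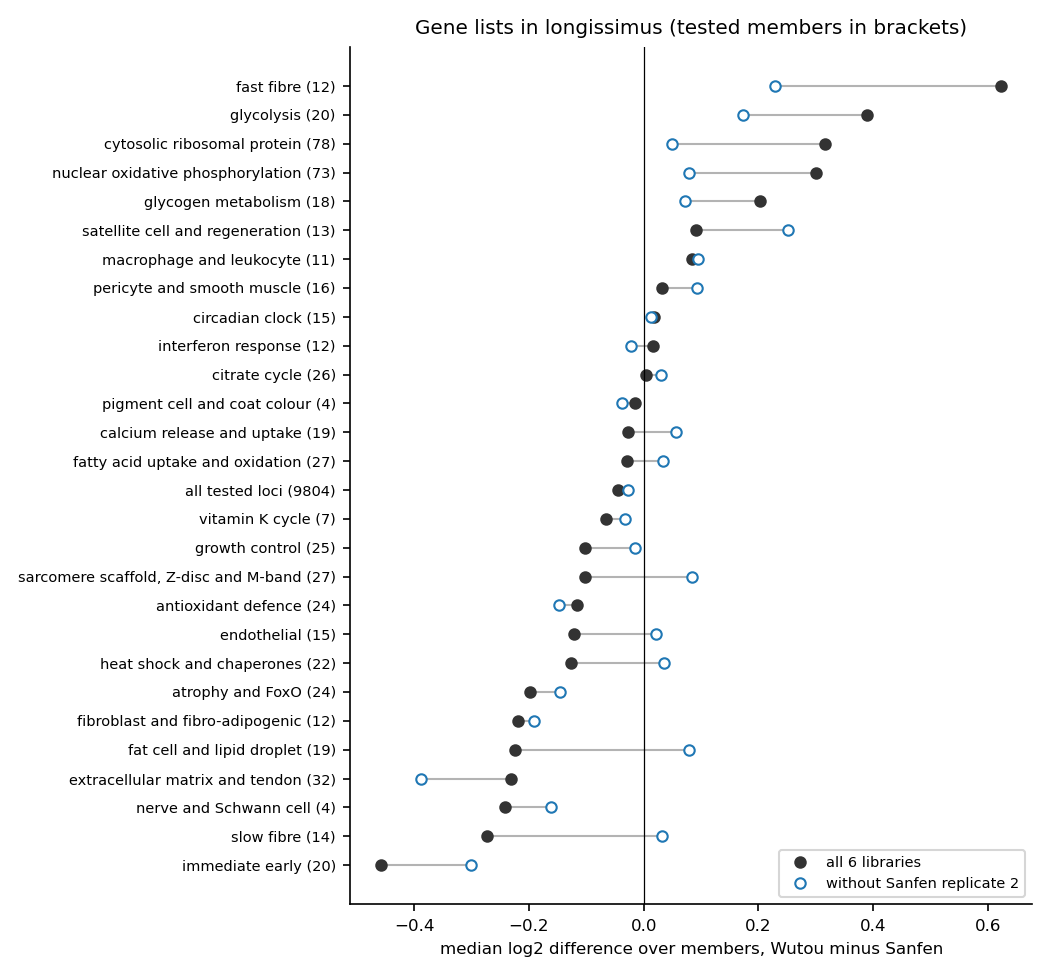
Median log2 difference (horizontal axis, Wutou minus Sanfen) over the tested members of each gene list and over all tested loci, with all 6 libraries (filled) and without the second Sanfen library (open). The fast fibre list has the highest median at 0.62 and the immediate early list the lowest at -0.46, and the slow fibre, fat cell and endothelial lists are among those whose sign changes without that library.

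To ask whether the strain difference was that of longissimus or of both muscles, the same loci were compared in gluteal muscle and the difference between the muscles was tested. The 2 comparisons share no library but may share donkeys. By limma, 0 loci rose and 1 fell (0.0102%) in gluteal muscle, and the interaction was called at 1 locus (0.0102%). An unadjusted p under 0.05 was reached by 68 higher (0.694%) and 354 lower loci (3.61%) in gluteal muscle and by 251 loci (2.56%) in the interaction. In gluteal muscle the strains did not overlap at 2.19% of loci in the higher and 8.37% in the lower direction. The called locus was ZNF24 in both. In gluteal muscle it had 3.82, 3.49 and 3.51 FPKM in the Sanfen libraries and 1.07, 0.575 and 0.734 in the Wutou libraries. The strains were separate in the direction opposite to longissimus, with a log2 difference of -1.37 (SE 0.16, limma adjusted p = 0.0353) and an interaction of 2.74 (SE 0.23, adjusted p = 0.000989).

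Of the 10 named genes of smallest p that were higher in Wutou longissimus, 5 lay higher in Wutou gluteal muscle too, and of the 10 lower ones 7 lay lower. COX7C lay the other way, at 198, 207 and 158 FPKM in Sanfen against 129, 127 and 120 in Wutou gluteal muscle, with separate strains (interaction 1.78, limma adjusted p = 0.267). COMMD1 and KIAA0513 were likewise separate in the opposite direction. Only THOP1 was separate in the same direction, at 4.83, 3.41 and 4.45 FPKM in Sanfen against 5.85, 5.63 and 5.65 in Wutou gluteal muscle. VKORC1 had no separate strains there, at 3.43, 8.17 and 3.88 FPKM in Sanfen against 5.89, 6.64 and 6.92 in Wutou.

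FMOD, PPP1R3C, CAT, COQ10B and NDRG1 were separate in the lower direction in both muscles. FMOD measured 9.18, 3.28 and 3.78 FPKM in Sanfen gluteal muscle and 1.89, 2.23 and 1.63 in Wutou. CAT was at 26.5, 21.1 and 21.4 FPKM in Sanfen against 11.9, 10.5 and 13.3 in Wutou gluteal muscle. Every Sanfen library lay above every Wutou library in both genes.

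Over all loci the gluteal share was 34.9% higher and 65.0% lower in Wutou. Of the 205 loci higher in longissimus at an unadjusted p under 0.05, 57.1% were also higher in gluteal muscle, and of the 332 lower ones 78.3% were also lower. The gene lists differed in how they compared: 10 of 12 fast fibre genes were higher in gluteal muscle as well, with a median of 0.35, and 12 of 14 slow fibre genes were lower, with a median of -0.83. Only 18 of 73 oxidative phosphorylation genes and 9 of 78 ribosomal protein genes were higher in gluteal muscle. Their medians there were -0.14 and -0.15, beside -0.08 over all loci. Both lists had the opposite sign in longissimus, though with medians of only 0.08 and 0.05 without the second Sanfen library.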

How the data were processed

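RNA was taken from longissimus dorsi and gluteal muscle and sequenced, per the labels' protocols, and TopHat2, Bowtie2 and cutadapt are listed, with no version, per the submitters' processing notes. The authors deposited 1 table of FPKM per locus, per the file headers; their normalization beyond this, the genome build and the annotation are not given in the sources used here. Loci named MSTRG carry the default identifiers of the assembler StringTie. Of 6221 LOC names, 3260 matched a RefSeq annotation of a donkey assembly and 1069 took its symbol.

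From these values, limma 3.58.1 in R 4.3.3 was fitted on log2(FPKM + 1) with 4 groups over all 12 libraries (8 residual degrees of freedom, variances with an intensity trend), adjusted over 9804 loci at 0.05. Fold changes on this scale understate the change of low loci. The fit was also run on simulated data with independent normal errors. These held no listed zeros, outlying library or shared donkeys, so that run cannot decide how such features bear on the calls here. Depth is unknown: low values gave no clear steps. A difference is called separate when the strains do not overlap.

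The members, the comparison and the 29 gene lists were chosen with earlier results of these data known. Named genes are, in each direction, those past the threshold, the 10 of smallest p with a symbol, above 0 in all 6 libraries, a mean of at least 2 FPKM in the higher group and separate strains, up to 3 listed at 0, the 3 to 5 of smallest p per list, and the 5 most abundant; 1 locus so named is not reported here. Other list members given as examples (such as PGAM2, ENO3, LDHA, LDHB, COL1A1, COL3A1, GPX3, HMOX1, FOS and IGF1) and merged loci were chosen after their values were seen. Alternatives changed the pseudocount, the filter, the scaling, array weights, the libraries fitted and the replicate block (statmod 1.5.0), and left out each library. Tables and plots used Python 3.11.15, numpy 2.4.6, pandas 2.3.3 and matplotlib 3.10.9.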

Additional observations from a re-analysis of the deposited data

Results flagged for a closer look

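ZNF24 differed between the muscles: its strain difference was 1.37 in longissimus and -1.37 in gluteal muscle on the log2(FPKM + 1) scale, an interaction of 2.74 (SE 0.23, limma adjusted p = 0.000989), with all 3 Wutou libraries above Sanfen in longissimus and all 3 below in gluteal muscle.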

How the results depend on the processing

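The counts of called loci were small and moved with most settings. Higher and lower in Wutou longissimus were 1 and 1 as reported. They were 2 and 3 with a pseudocount of 0.1, 2 and 2 with no filter on low values or with array weights, 2 and 1 with either rescaling and with only loci above 0 in all 6 libraries (chosen after seeing the data), 0 and 0 at an FPKM of at least 5, 5 and 2 with only the 6 longissimus libraries (neither ZNF24 nor BTBD9 among them), and 205 and 332 at an unadjusted p. Leaving out each library in turn gave 0 to 4 higher and 0 to 2 lower. The interaction count of 1 was 2 with no filter and with either rescaling, 0 at an FPKM of at least 5, 251 at an unadjusted p, and 1 to 5 with a library left out.

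The replicate numbers did not pair the strains (correlations of the deviations of same-numbered libraries of 0.0972, 0.195 and -0.0866); between the muscles of a strain each longissimus library correlated best with its own number, a hint from the data only. With the number as a fixed block the counts were 1 higher and 0 lower, BTBD9 losing its call (limma adjusted p = 0.0791), and 2 for the interaction; with a random block of strain and number they were 1, 1 and 2.

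Of 2380 alternative values for 111 named loci, 14 changed sign, at 9 loci, none of them ZNF24, BTBD9 or another of smallest p. With a library left out the log2 difference ran from -1.05 to 0.14 for TNNI1, -2.26 to 0.0082 for PPARGC1A, -0.089 to 0.47 for KITLG, -0.19 to 0.055 for MITF, -0.11 to 0.039 for ATRN, -0.15 to 0.94 for C1QA, -0.14 to 0.82 for C1QC, -0.73 to 0.27 for ISG15 and -0.082 to 0.20 for ACTA1. ATRN was 0.012 and 0.027 with median-of-ratios and quantile scaling, ACTA1 -0.059 with quantile scaling and ISG15 0.14 with array weights. The cause of these changes was not tested. At an FPKM of at least 5, 56 named loci had no value. With 3 libraries a group and unknown depth, low loci are the least certain.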

Other observations

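Other gene groups gave little that separated the strains in longissimus. Among 15 clock genes the median was 0.02. The activator ARNTL read 1.58, 1.17 and 1.45 FPKM for Sanfen and 1.07, 0.528 and 0.524 for Wutou, which were separate, and the repressor PER3 0.686, 1.28 and 0.675 against 1.01, 3.38 and 1.59, which overlapped. Neither passed the test (limma adjusted p = 0.860 for both), and sampling times are not in the labels.

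Of 19 coat colour and pigment cell genes 4 were tested, with a median of -0.02 (0.03 with median-of-ratios and 0.06 with quantile scaling, and 0.09 without the first Sanfen library). KITLG, the ligand of the KIT receptor, overlapped at 1.46, 1.56 and 1.47 FPKM in Sanfen against 2.10, 0.778 and 2.85 in Wutou. Of the other vitamin K genes, MGP, a matrix protein that needs vitamin K, stood at 26.5, 13.0 and 25.9 FPKM in Sanfen and at 17.7, 14.8 and 15.2 in Wutou, with overlap, and the 7 tested members had a median of -0.07 (0.04 without the third Wutou library). The heat shock gene HSPH1 was at 9.23 FPKM in the first Wutou library and at 0.686 to 1.29 FPKM in the other 5. PPARGC1A, a coactivator of mitochondrial genes, was at 63.0 FPKM in the first Sanfen library and at 1.76 to 2.97 FPKM in the other 5.

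Interferon response genes had a median of 0.02 over 12 members, heat shock and chaperone genes -0.13 over 22, sarcomere scaffold genes -0.10 over 27 and calcium handling genes -0.03 over 19 (0.04 with median-of-ratios scaling). Without the second Sanfen library all of these changed sign, to -0.02, 0.04, 0.08 and 0.06 in that order.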
